A study of Mus musculus with 2 samples.

Results

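The 10 genes described here encode amino acid transporters of the plasma membrane: Slc7a5, Slc3a2, Slc7a1, Slc7a11, Slc1a3, Slc1a4, Slc1a5, Slc38a1, Slc38a2 and Slc6a9. They were taken by symbol from a table of 24532 genes, and each symbol matched 1 row. RNA was sequenced from cardiac myofibroblasts, the contractile, matrix-secreting fibroblasts of injured heart, isolated from C57BL/6 mice 3 days after myocardial infarction. Both groups were cultured in serum-containing medium, transfected with 12.5 nM of siRNA and kept for 72 hours. The siControl cells received a control siRNA and the siBcat1 cells received 1 siRNA against Bcat1, which encodes the cytosolic aminotransferase of leucine, isoleucine and valine. The age of the mice and how many gave cells are not given in the labels used here. Each group is 1 library, so no difference below has a replicate check, no test was made, and how far cultures of the same treatment differ is unknown.

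Amino acids cross the plasma membrane through carriers of several families. Some are exchangers that let one amino acid in only as another leaves, and others use the sodium gradient to load the cell. In an exchange known from many cell types, sodium-coupled carriers raise intracellular glutamine, which LAT1 (the product of Slc7a5) trades for leucine, isoleucine and valine, the substrates of Bcat1. LAT1 and the cystine carrier xCT (Slc7a11) are light chains that reach the membrane only when linked to the heavy chain encoded by Slc3a2. Many of these genes are known targets of ATF4, a transcription factor made when amino acids run short. Matrix-producing fibroblasts draw glycine, glutamine and arginine through such carriers as material for collagen and its proline.

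The libraries held 127309329 counts in siControl and 104581819 in siBcat1. Bcat1 itself had 8891 counts in siControl and 99 in siBcat1. All 10 of 10 cardiac fibroblast markers and all 8 of 8 myofibroblast markers averaged at least 5 CPM over the libraries, where CPM is the count relative to the scaled library size. Their summed levels were 27004 and 12082 CPM for the fibroblast list and 18794 and 9871 CPM for the myofibroblast list, siControl first. A few abundant genes carried most of the differences in these sums. Without Fn1 the other 7 myofibroblast markers summed to 6836 and 6916 CPM, most of it from Acta2 (3380 and 3139 CPM) and Tagln (1528 and 2129 CPM). Of all 8, 6 had a log2 fold below 0, against 53.2% of all genes averaging at least 5 CPM. Among the 6 were Postn at -1.19 and Acta2 at -0.11, while Tagln was at 0.48. Without Col1a1, Col1a2 and Col3a1 the other 7 fibroblast markers summed to 1773 and 1406 CPM. Of all 10 fibroblast markers 9 were below 0, against the same 53.2%, and the exception was Thy1 at 0.63. The marker lists of other cells summed to less than these 2 lists in both libraries. Single genes of them were not low in siControl. Notch3 had 80.1 CPM and Tnnt2 46.3 CPM there, against 79.2 CPM for the fibroblast marker Lum and 39.6 CPM for the myofibroblast marker Cnn1. The macrophage list summed to 10.5 and 29.0 CPM with 5 of 12 genes at 0 in both libraries, the endothelial list to 54.5 and 60.9 CPM, and the mural cell list to 88.9 and 31.7 CPM. The most abundant gene of each was Lyz2 (5.46 and 21.3 CPM), Tek (33.9 and 32.0 CPM) and Notch3 (80.1 and 26.5 CPM). Their log2 folds were 1.97, -0.08 and -1.60. The cardiomyocyte list summed to 46.4 and 10.3 CPM, nearly all from Tnnt2, with 7 of 9 genes at 0 in both libraries, Myh6 among them. The part of these differences in the values below was not tested, and in bulk RNA fewer cells of a type and less RNA per cell cannot be told apart.

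All 10 transporter genes had a lower scaled count in siBcat1 than in siControl. Among the 9935 genes that averaged 5 CPM or more, a set that all 10 entered, 53.2% were below 0 on the log2 scale. The log2 folds (siBcat1 over siControl) ran from -1.15 to -0.24, with a median of -0.66 against -0.06 over all 9935 genes. Most of the differences were moderate. Only Slc38a1 was at least 2-fold lower, 1 of 10, a share close to the 13.0% of all genes, and none was at least 2-fold higher, against 5.58%. At least 1.5-fold lower were 7 of 10, against 25.6% of all genes, and none was at least 1.5-fold higher, against 17.6%. Summed over the 10 genes, the level went from 1105 CPM in siControl to 699.7 CPM in siBcat1, 63.3% of the siControl value.

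The sign depended in part on how transcript length was treated. In these 2 libraries long transcripts tended to be lower in siBcat1, with a Spearman correlation of -0.65 between length and log2 fold across genes, which are not replicates. The 10 genes had a median transcript length of 4045 bases, against 2968 bases for all genes measured. With a smooth trend on length subtracted (length-adjusted values), 7 of the 10 were below 0, against 49.8% of all genes, and Slc7a1, Slc7a11 and Slc1a3 were above 0. The median was then -0.29, and 3 of 10, namely Slc7a5, Slc6a9 and Slc1a5, were at least 1.5-fold lower, against 14.3% of all genes, and none was at least 1.5-fold higher, against 12.8%. With a trend on GC content subtracted as well, the same 3 genes were the lowest, none of the 10 was 1.5-fold lower, against 13.6%, and the median was -0.25. Of the markers above, 3 of 10 fibroblast and 4 of 8 myofibroblast genes were at least 1.5-fold lower length-adjusted, against 14.3%. None of these markers was at least 1.5-fold higher, against 12.8%. The length-adjusted medians of the 2 marker lists were -0.43 and -0.54.

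**Figure D1:**
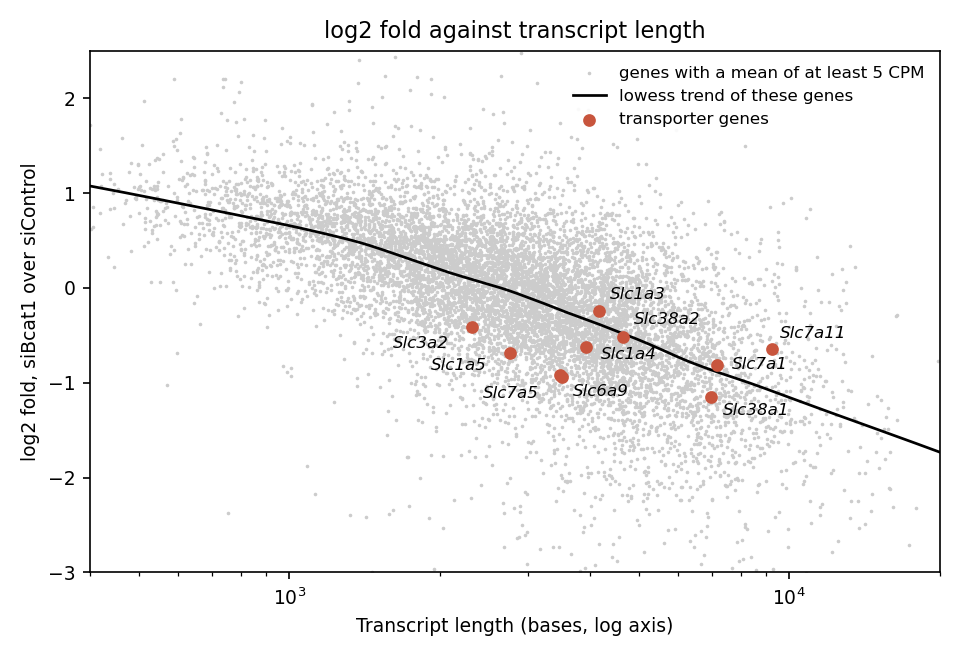
Each grey point is 1 of 9887 genes that averaged 5 CPM or more and had a known transcript length; the x axis is transcript length in bases (log axis), the y axis the log2 fold of scaled counts, siBcat1 over siControl, and the black line the lowess trend; 90 genes lie outside the plotted range. The transporter genes (red) are all below 0, but Slc7a1, Slc7a11 and Slc1a3 lie above the trend line, while Slc7a5, Slc6a9, Slc1a5 and Slc3a2 lie farthest below it.

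Levels can be compared between genes only per transcript length, for which the deposited TPM values (transcript abundance scaled for length and depth) were used. In siControl, Slc38a2 was highest with 131 TPM, followed by Slc7a5 with 112 TPM and Slc3a2 with 105 TPM. Slc1a5 had 76.5 TPM, Slc7a1 48.9 TPM and Slc1a4 42.0 TPM. Below these came Slc1a3 with 21.4 TPM, Slc6a9 with 16.7 TPM, Slc38a1 with 14.5 TPM and, far lower, Slc7a11 with 4.15 TPM. Per unit length, the siControl cells carried 31.7 times as much Slc38a2 as Slc7a11 message. The order in siBcat1 was the same except that Slc3a2, with 55.3 TPM, stood above Slc7a5, with 41.2 TPM. Neighbours in this order, such as Slc7a1 with 19.6 TPM and Slc1a4 with 19.2 TPM in siBcat1, have no spread between replicates by which to part them.

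**Figure D2:**
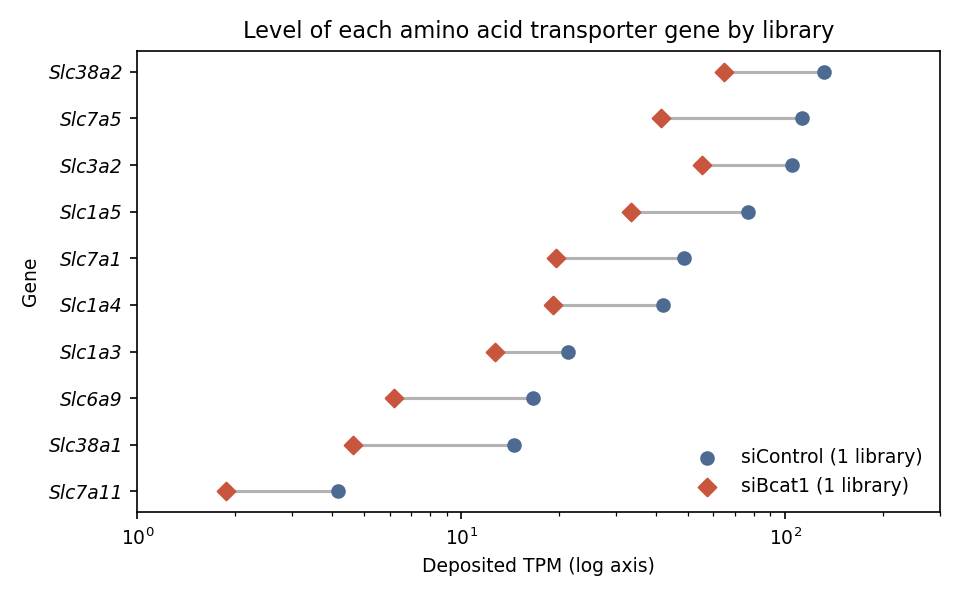
Deposited TPM of each transporter gene (x axis, log scale) in the siControl library (blue circles) and the siBcat1 library (red diamonds), with genes on the y axis ordered by the siControl level. Every siBcat1 point lies to the left of its siControl point, and Slc7a5 and Slc3a2 exchange their order between the libraries.

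Slc7a5 (chromosome 8, 121881146 to 121907686, minus strand, GRCm38) encodes LAT1, the exchanger that admits leucine, isoleucine and valine. It had 25022 counts in siControl and 10043 in siBcat1, or 190 and 99.1 CPM. The siBcat1 level was 52.1% of the siControl level, a log2 fold of -0.94 [-0.97 to -0.91], where brackets give an exact 95% interval of counting error alone. It was lower than the trend for its length as well, with -0.70 length-adjusted and -0.56 with GC content added. Of all measured genes, 14.3% had a lower log2 fold, and 10.6% a lower length-adjusted one.

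Slc3a2 (chromosome 19, 8706882 to 8723369, minus strand) encodes the heavy chain that LAT1 and xCT share. It had 17201 counts in siControl and 9959 in siBcat1, giving a level of 75.1% and a log2 fold of -0.41 [-0.45 to -0.38]. At 2316 bases its transcript is the shortest of the 10, and its length-adjusted value was -0.50. The heavy chain was thus lower by less than its LAT1 partner. The log2 fold of Slc7a5 minus that of Slc3a2 was -0.53 [-0.58 to -0.48], a value in which library scaling cancels, and -0.20 after length adjustment. In TPM, Slc7a5 stood at 1.08 times Slc3a2 in siControl and at 0.746 times in siBcat1.

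Slc7a11 (chromosome 3, 50364936 to 50499087, minus strand) encodes xCT, which imports cystine for glutathione and exports glutamate. It had 2425 counts in siControl and 1198 in siBcat1, giving a level of 64.1%. The log2 fold of -0.64 [-0.74 to -0.54] turned to 0.44 length-adjusted and to 0.14 with GC content added. Its transcript, with 9223 bases, is the longest of the 10, and the trend for that length was -1.09. No direction apart from the length trend can therefore be given for Slc7a11. Against Slc3a2 its log2 fold differed by -0.23 [-0.34 to -0.12], and by 0.95 after length adjustment, so this sign turned too.

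Slc7a11 is also the member whose start region held the letters of an ATF4 composite site, where ATF4 sits beside a C/EBP partner, more than once. The motif TGATGNAA was searched on both strands in the RefSeq table of start regions (GRCm38.p6), which spans 250 bases before to 50 after each start. A match occurred in 3.97% of 32851 windows, and 2 or more matches in 23 windows. The table held 10 windows for 7 of the 10 genes, some with more than 1 start, and no entry for Slc7a5, Slc1a5 and Slc38a1. Matches were found in Slc7a11 and Slc1a4, while the windows of Slc3a2, Slc7a1, Slc1a3, Slc38a2 and Slc6a9 held none. The 120 bases before the start of Slc7a11 (chr3:50443614-50443733, minus strand) and 30 bases around the start of Slc1a4 (chr11:20332699-20332728, minus strand) are printed 5′ to 3′ to show these matches, in capitals.
Slc7a11: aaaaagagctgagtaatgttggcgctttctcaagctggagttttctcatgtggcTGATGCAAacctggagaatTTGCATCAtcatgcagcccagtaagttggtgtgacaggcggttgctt
Slc1a4: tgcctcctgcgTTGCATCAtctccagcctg
The start of Slc7a11 in this table, at 50443613, lies inside the RefSeq span of the gene given above, so the stretch is not the region before the outermost annotated end, and the same holds for the start of Slc3a2 at 8713897. In Slc7a11 the first match begins 66 bases before the start and the second, on the other strand, 47 bases before it. The Slc1a4 match, on the other strand, begins 4 bases before the start. A match describes letters only and shows no binding, and sites outside these windows were not searched. The pair of genes with matches had nearly equal log2 folds, -0.64 for Slc7a11 and -0.62 for Slc1a4, a difference of -0.02 [-0.13 to 0.09]. Length-adjusted they were at 0.44 and -0.29.

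Slc7a1 (chromosome 5, 148327410 to 148399904, minus strand) encodes CAT1, the carrier of arginine, lysine and ornithine. It had 22218 counts in siControl and 9750 in siBcat1, or 169 and 96.2 CPM. Its log2 fold was -0.81 [-0.85 to -0.78], a level of 56.9%, but 0.07 length-adjusted and 0.14 with GC content added. The transcript has 7179 bases, and the trend for that length, -0.89, was close to the gene's own value. Relative to genes of its length, Slc7a1 was thus near the middle, with 56.0% of measured genes at a lower length-adjusted value.

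The SLC1 family was represented by a glutamate carrier and a pair of neutral amino acid exchangers. Slc1a5 (chromosome 7, 16781334 to 16798274, plus strand) encodes ASCT2, the main glutamine exchanger of many growing cells. It had 13370 counts in siControl and 6405 in siBcat1, giving a level of 62.2% and a log2 fold of -0.69 [-0.73 to -0.64]. The value hardly moved with length, to -0.65, since the trend at 2764 bases is near 0 (-0.03), and was -0.51 with GC content added. Slc1a4 (chromosome 11, 20302180 to 20332713, minus strand) encodes ASCT1, an exchanger of alanine, serine and cysteine. It had 10443 counts in siControl and 5228 in siBcat1, giving a log2 fold of -0.62 [-0.67 to -0.57] and -0.29 length-adjusted. The folds of these paralogs differed by 0.06 [-0.00 to 0.13], an interval that reaches 0, and by 0.36 after length adjustment.

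Slc1a3 (chromosome 15, 8634124 to 8710807, minus strand) encodes the sodium-driven glutamate and aspartate carrier GLAST. Counts were 5695 in siControl and 3705 in siBcat1, giving a level of 84.4%. Its log2 fold of -0.24 [-0.30 to -0.18] was the nearest to 0 of the 10, and it was 0.14 length-adjusted and 0.06 with GC content added, so its direction also turned. Slc1a3 was less low than its paralogs, by 0.44 [0.37 to 0.51] on the log2 scale against Slc1a5 and by 0.38 [0.30 to 0.45] against Slc1a4. These differences kept their sign with length adjustment, at 0.79 and 0.43.

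Slc38a1 and Slc38a2 encode SNAT1 and SNAT2, sodium-coupled importers of glutamine, alanine and other small neutral amino acids, and SNAT2 is known to be induced when amino acids are scarce. Slc38a1 (chromosome 15, 96571418 to 96643438, minus strand) had 6823 counts in siControl and 2377 in siBcat1, or 51.9 and 23.5 CPM. This was the lowest log2 fold of the 10, -1.15 [-1.21 to -1.08], a level of 45.2%. Its transcript has 6966 bases, where the trend is -0.86, and the length-adjusted value of -0.28 put 29.1% of measured genes below it. Slc38a2 (chromosome 15, 96687392 to 96699728, minus strand), the most abundant of the 10, had 38547 counts in siControl and 20810 in siBcat1, or 293 and 205 CPM. Its log2 fold of -0.51 [-0.54 to -0.49] was -0.03 length-adjusted and -0.20 with GC content added. Slc38a1 was thus lower than its paralog, by -0.63 [-0.70 to -0.56] in log2 fold, which was -0.25 after length adjustment and -0.09 with GC content added. The TPM of Slc38a1 was 0.111 times that of Slc38a2 in siControl and 0.0713 times in siBcat1.

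Slc6a9 (chromosome 4, 117835258 to 117869305, plus strand) encodes GLYT1, the sodium- and chloride-coupled importer of glycine, the most frequent residue of collagen. It had 3456 counts in siControl and 1409 in siBcat1, or 26.3 and 13.9 CPM. The log2 fold of -0.92 [-1.01 to -0.83] was -0.69 length-adjusted and -0.55 with GC content added, values that lie beside those of Slc7a5. Between Slc7a5 and Slc6a9 the difference in log2 fold was -0.02 [-0.12 to 0.07]. The exons of Slc6a9 overlap those of B4galt2 and Ccdc24 on the opposite strand. B4galt2 had 8958 and 7279 counts, and whether strand was used in counting is not given, so shared stretches cannot be told apart.

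**Figure D3:**
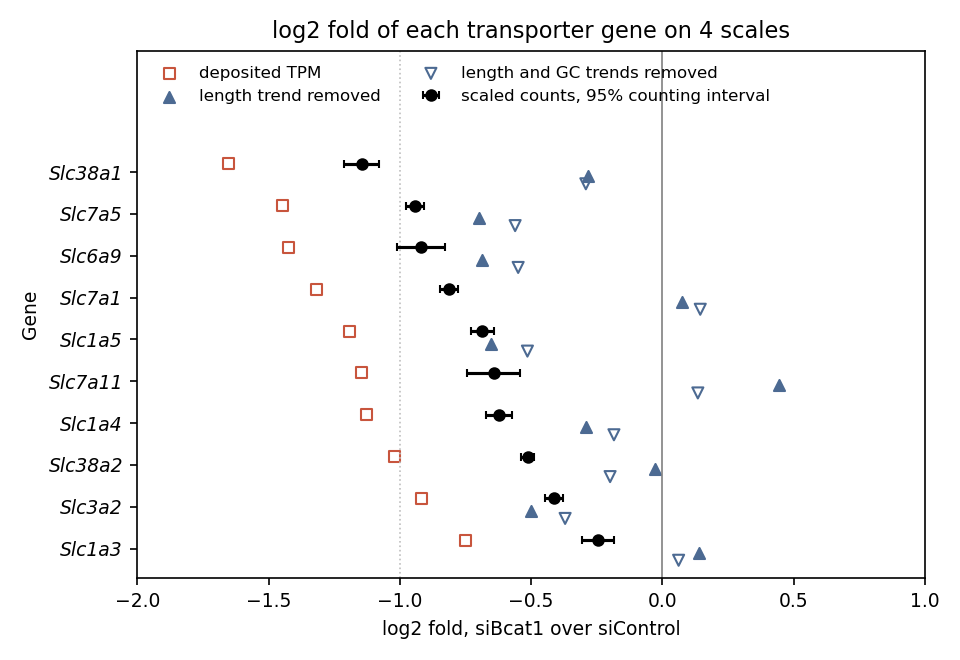
The log2 fold (siBcat1 over siControl, x axis) of each transporter gene (y axis) from scaled counts with the exact 95% interval of counting error (black), from deposited TPM (open red squares), with the length trend removed (filled blue triangles) and with length and GC trends removed (open blue triangles); the dotted line marks a 2-fold lower level. The black points run from -1.15 in Slc38a1 to -0.24 in Slc1a3, and the blue triangles of Slc7a1, Slc7a11 and Slc1a3 are right of 0.

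In deposited TPM the ratio of siBcat1 to siControl was lower by a near-constant amount. For each of the 10 genes the log2 TPM ratio minus the log2 fold of scaled counts was -0.51, so both scales gave the same order. On this scale the siBcat1 level ran from 31.8% of the siControl TPM for Slc38a1 to 59.4% for Slc1a3. With a pseudocount of 1 and a minimum of 5 TPM, which Slc7a11 missed, 7 of 9 were at least 2-fold lower, against 22.4% of all genes and a median of all genes of -0.47. The median of the 9 genes minus that of all genes was -0.70 on this scale, and in scaled counts the same difference for the 10 genes was -0.60.

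The remaining amino acid carriers were taken from 7 lists of 58 genes by family and compartment. Most of these genes were hardly present in the cells, and 23 averaged 5 CPM or more. Among them 6 were lower by 2-fold or more in siBcat1, against 13.0% of all genes, and none was higher by that much, against 5.58%. By 1.5-fold or more, 11 were lower and 2 higher, against 25.6% and 17.6%. The median was -0.58, and -0.36 length-adjusted, where 8 were lower and 6 higher by 1.5-fold or more, against 14.3% and 12.8%. These counts describe the genes that passed the minimum, of which Slc36a4 and Slc43a1 were under it in siBcat1 and Slc43a2 in siControl. Among the 23, Slc36a4 and Slc25a12 have uncertain lengths, as given below, so the length-adjusted counts and median are uncertain too.

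Some of these carriers had lower values than the 10 genes. Slc7a2, which encodes the arginine carrier CAT2, had 12268 counts in siControl and 925 in siBcat1, giving a log2 fold of -3.35 [-3.45 to -3.26] and -2.66 length-adjusted. The level was 9.78% of that in siControl, whereas its relative Slc7a1 stood at 56.9%. Slc36a4, a carrier of proline and tryptophan, had 2712 and 240 counts, or 20.6 and 2.37 CPM, so that it passed the minimum through siControl alone, with a log2 fold of -3.12 [-3.32 to -2.93] and -2.31 length-adjusted. The length used for Slc36a4 was 6539 bases, yet its siControl TPM was 22.1, near its CPM. Slc38a1, with 6966 bases, had 51.9 CPM and 14.5 TPM. The deposited TPM thus imply a shorter Slc36a4 transcript, so its length-adjusted value is uncertain. Slc6a6, the taurine importer, had 39465 and 8897 counts, with -1.77 [-1.81 to -1.74] and -1.01 length-adjusted. Slc7a2 and Slc6a6, which passed the minimum in both libraries, were lower than any of the 10 genes, before and after length adjustment.

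Other family members lay on both sides of 0. The remaining measured SLC7 gene, Slc7a6, had -0.63 and, length-adjusted, -0.34. In the SLC38 family Slc38a4 had -1.13, Slc38a7 -0.72 and Slc38a10 -0.45, with -0.79, -0.53 and 0.02 length-adjusted, so that Slc38a10 lost its sign. Slc43a1, a sodium-independent carrier of leucine and its relatives, had -1.14 and, length-adjusted, -1.17. Slc36a1, a proton-coupled carrier of small amino acids, had -1.03 and -0.43. Slc38a9, a lysosomal arginine sensor, had 0.03, Slc43a2, a relative of Slc43a1, had 0.42 and Slc16a10, a carrier of aromatic amino acids, had 0.42, with 1.09, 1.28 and 0.74 length-adjusted. In TPM these 3 had -0.48, -0.08 and -0.30, where the median of all genes was -0.47 with a pseudocount of 1.

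Carriers of inner membranes were divided. Of 7 measured mitochondrial carriers, 1 was higher and 1 lower by 1.5-fold or more, against 17.6% and 25.6% of all genes, with a median of 0.03. Length-adjusted, 3 were higher and 1 lower by that much, against 12.8% and 14.3%, and the median was 0.32. One of the 3 was Slc25a12 with 0.65, for which a length of 6351 bases was used. Its siControl level was 39.8 CPM and 28.2 TPM, a ratio similar to that of Slc25a13, with 3121 bases, 11.1 CPM and 7.37 TPM. The deposited TPM thus imply a shorter Slc25a12 transcript, so its length-adjusted value is uncertain, as are the count and median that include it. Slc25a38, the glycine carrier, had 0.60, Slc25a22, a glutamate carrier, had -0.68, and Slc25a44, the mitochondrial carrier of branched-chain amino acids, had -0.58, with 0.32, -0.68 and -0.36 length-adjusted. Among 3 measured lysosomal genes, Pqlc2, a carrier of cationic amino acids, had 0.66, Ctns, the cystine exporter, had -0.64, and Slc15a4, a histidine and peptide carrier, had -0.52. Length-adjusted these were 0.26, -0.66 and -0.50.

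**Figure D4:**
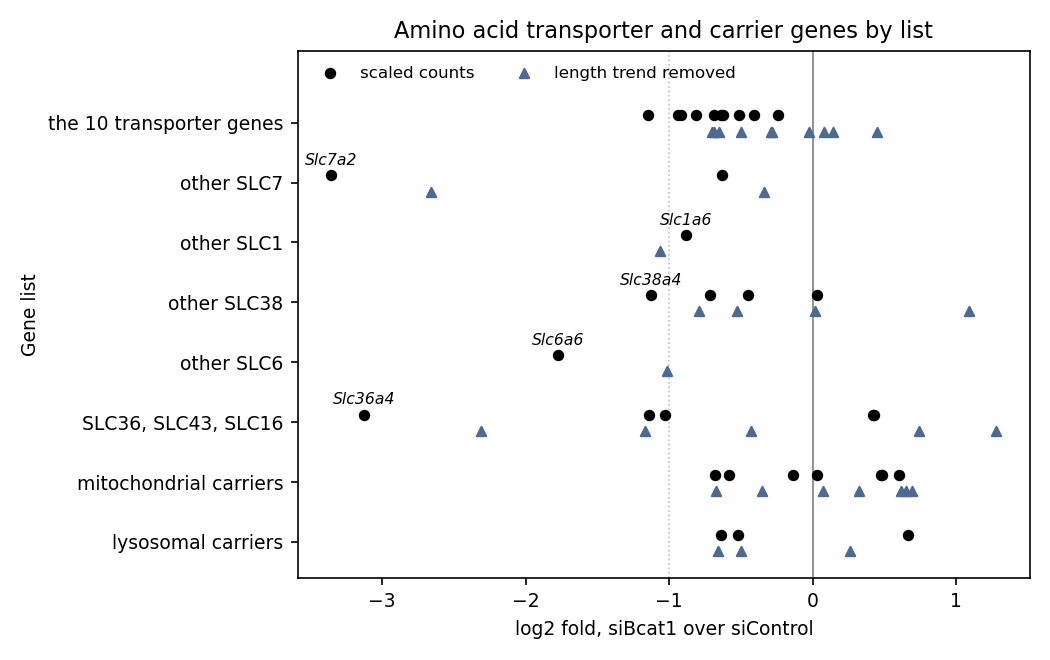
The log2 fold (siBcat1 over siControl, x axis) of each measured gene in the 10 transporter genes and in 7 further lists (y axis), from scaled counts (black circles) and with the length trend removed (blue triangles); the dotted line marks a 2-fold lower level. Slc7a2 and Slc36a4 lie far to the left at -3.35 and -3.12, and the mitochondrial carriers lie on both sides of 0.

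The list of ATF4 and its stress targets had a median of -0.16 over 11 measured genes and -0.55 length-adjusted. At least 2-fold lower were 4 of 11, against 13.0% of all genes, and none was at least 1.5-fold higher, against 17.6%. Below 0 were 8 of the 11, against 53.2% of all genes. The 3 above 0 were Asns with 0.22, Phgdh with 0.10 and Atf5 with 0.05. Length-adjusted these had 0.02, -0.14 and -0.24. In TPM they had -0.29, -0.41 and -0.45, where the median of all genes was -0.47 with a pseudocount of 1. Trib3, a pseudokinase made in amino acid stress, had 5262 counts in siControl and 1184 in siBcat1, giving a log2 fold of -1.78 [-1.87 to -1.69]. Chac1, which degrades glutathione, had 2302 and 675 counts, with -1.39 [-1.52 to -1.27], and Vldlr, a lipoprotein receptor, had 1831 and 559, with -1.34 [-1.48 to -1.20]. Length-adjusted these had -1.96, -1.75 and -0.62. Atf4 itself had 34575 and 22627 counts, giving a log2 fold of -0.24 [-0.26 to -0.21] and -0.55 length-adjusted.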

How the data were processed

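Gene counts and TPM values of 1 siControl and 1 siBcat1 library were used as deposited. The counts are whole, unnormalized reads per gene and the TPM values are scaled by the authors for transcript length and depth, per the file headers. Per the submitters' processing notes, FastQC, Trimmomatic, HISAT2 and StringTie are listed, with build mm10; the sources used here give neither the role of each nor the use of strand or read pairs in counting.

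Counts were scaled with TMM factors (edgeR 4.0.16, R 4.3.3) of 1.03 in siControl and 0.969 in siBcat1, so that 1 CPM was 131 and 101 counts. Genes averaging 5 CPM or more were kept. Intervals of single folds are exact Clopper-Pearson intervals of the siBcat1 share of both counts, those of differences between genes use Poisson errors on the log scale, and all cover counting error only, without PCR duplication or biological spread. Transcript lengths and GC content are medians over the transcripts of GENCODE M21 (GRCm38), joined by RefSeq accession and found for 9887 genes. Lowess trends had a fraction of 0.3 and 3 iterations (statsmodels 0.14.6). Gene coordinates are those of RefSeq GRCm38.p6, counted from 1. The intervals and trend removal were tested on simulated data with counting error alone and a straight trend on length. That check does not cover spread between cultures, a curved trend or wrong transcript lengths.

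Members and gene lists were chosen with earlier results of these data known. Named are all 10 members, Bcat1 and Atf4. Of each transporter, carrier, enzyme and stress list, up to 3 measured genes with the largest absolute log2 fold are named. The marker lists did not follow this rule, and only some of their genes are named. B4galt2 and Ccdc24 were added for their overlap. Slc25a12, Slc25a13, Lum and Cnn1 were named after their values were seen. The motif, some of the gene pairs, and Slc38a8, Slc6a7, Slc38a9, Slc43a2, Slc16a10, Asns, Phgdh, Atf5, Tagln, Acta2, Postn, Thy1, Lyz2, Tek and Notch3 were chosen after their values were seen. With 2 libraries each gene has 1 fold, so no genes are named as alike in pattern. Alternatives were DESeq2 1.42.0 size factors, upper-quartile factors, library totals, TPM with a pseudocount of 1 or 0.1, a minimum of 1 or 20 CPM or none with a prior count of 0.5, thresholds of 1.5-fold and 3-fold, and removal of trends on length and GC content.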

Additional observations from a re-analysis of the deposited data

How the results depend on the processing

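No member was higher by the threshold of the setting under any of the 12 alternatives, against 0.946% to 17.6% of all genes. The count of members at least 2-fold lower, 1 in scaled counts against 13.0% of all genes, was 3 with library totals, against 15.1%. With TPM at a pseudocount of 1 or 0.1 it was 7 of 9, against 22.4% and 25.1%. At a 1.5-fold threshold 7 were lower, against 25.6%, and at a 3-fold threshold 0, against 4.55%. The count was 0 with the length trend removed, against 5.30%, and with length and GC trends removed, against 5.17%. Under the others it was 1, against 10.2% to 19.2%. The median of -0.66 was -0.76 with library totals, -0.54 with upper-quartile factors, -1.17 and -1.19 with TPM at a pseudocount of 1 and 0.1, -0.29 with the length trend removed and -0.25 with length and GC trends removed, and moved less than the counting intervals under the others. Slc7a1, Slc7a11 and Slc1a3 were above 0 in both trend removals, and all other members were below 0 in every alternative in which they were measured. Upper-quartile factors moved the median of all genes by 0.13 and TPM with a pseudocount of 1 by -0.41. Slc1a3 was at -0.12 and -0.71 in these. It was below 0 in 8 alternatives and above 0 in the 2 trend removals, so its small fold has no firm direction. Counting error is small at these depths; the missing replicates limit every value. No paired analysis was possible because each group has 1 library.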

Other observations

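Enzymes that use the carried amino acids lay on both sides of 0, with 5 of 12 measured below it, against 53.2% of all genes. None was at least 1.5-fold lower, against 25.6% of all genes, and 1 was at least 1.5-fold higher, against 17.6%, with a median of 0.10 and the same value length-adjusted. Gss, glutathione synthetase, had 3199 counts in siControl and 3920 in siBcat1, giving a log2 fold of 0.67 [0.60 to 0.74] and 0.41 length-adjusted. Gclm, the modifier subunit of the enzyme that starts glutathione synthesis, had 0.40 and 1.06, and Gldc, the glycine decarboxylase, had -0.42 and -0.13. In TPM Gclm had -0.10, where the median of all genes was -0.47 with a pseudocount of 1. The length used for Gclm was 5589 bases, yet its siControl level was 50.5 CPM and 50.6 TPM. Gss, with 1843.5 bases, had similarly close values, 24.3 CPM and 25.8 TPM. The deposited TPM thus imply a shorter Gclm transcript, so its length-adjusted value is uncertain.

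Slc1a6, a glutamate carrier known mainly from cerebellar Purkinje neurons, was plentiful in these cells. It had 6723 counts in siControl and 2815 in siBcat1, or 50.8 and 19.4 TPM, above Slc1a3 in both libraries. Its log2 fold was -0.88 [-0.94 to -0.82] and -1.06 length-adjusted. Among carriers under the expression minimum, 5 were counted in siControl alone, with at most 30 counts, and 2 in siBcat1 alone, with at most 14. The highest of each were Slc6a7, with 30 counts in siControl, and Slc38a8, with 14 in siBcat1.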
